A study of Rattus norvegicus and Mus musculus with 251 samples.

Results

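The genes described here are 5 mouse genes, the nuclear receptors Nr1d1 and Nr1d2 (also called Rev-erb alpha and Rev-erb beta) and the PAR bZIP transcription factors Dbp, Tef and Hlf. They were picked by symbol from the 46078 gene identifiers of the deposited mouse count table, and all 5 were found and passed the filter on low counts in every fit. The choice was made with earlier results of these data known. In the circadian clock, BMAL1 (the product of Arntl) and CLOCK switch on Nr1d1, Nr1d2 and Dbp, and the Rev-erb proteins in turn repress Arntl. Dbp, Tef and Hlf bind the same short DNA element, where Nfil3 competes with them as a repressor, and they pass the rhythm on to output genes. In brain tissue the transcripts of Dbp and the Rev-erbs rise and fall over the day, so their level depends on the hour of collection, which is not given in the sources used here.

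The inbred strain C57BL/6J was used, and mice drank either a saline or a morphine solution. RNA came from punches of 0.5 mm of the prefrontal cortex (PFC) and the nucleus accumbens (NAc), the ventral part of the striatum. In PFC there were 6 libraries of saline mice, 8 of mice under chronic morphine, 9 of mice taken 24 h after morphine (labelled 24h) and 7 of mice taken 2 weeks after it (labelled 2W). NAc had 7, 8, 9 and 8 libraries in the same order, and both sexes were in every group. The age of the mice and the dose are not given in the sources used here, and nothing in the labels ties each library to 1 animal. P-values therefore measure the spread between these libraries.

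The labels name neuron as the cell type, but the punches held several cell types. Summed oligodendrocyte markers (6 of 6 measured) ranged from 3000 to 14100 CPM (counts scaled to a common library total) over the 62 libraries. Of 9 striatal neuron markers, all were measured and none was at 0 in any NAc library, where the sum ranged from 446 to 8360 CPM. In PFC the same sum reached at most 313 CPM, and Adora2a, Drd1, Drd2, Rgs9 and Tac1 were each at 0 in at least 1 library. Cortical excitatory markers (7 of 7) summed to 1670 to 4120 CPM in PFC and 45.7 to 699 in NAc. Library totals ranged from 5182601 to 43963295 counts, and the lowest belonged to PFC number 10 of the 2W group, which stood apart because the next lowest total was 22387525. Number 27, labelled female, had Ddx3y counts of 2106 in PFC and 2569 in NAc and Xist counts of 0 and 34, which goes against its label.

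The 5 genes come in a pair and a trio of paralogs, so it mattered whether reads of 75 bases could tell them apart. The most alike coding stretches of that length in the PAR bZIP trio are printed here from the GENCODE M21 transcripts (GRCm38), 5′ to 3′, because they are where a read could most easily be given to the wrong gene. Capitals mark the bases that all members of the trio share.
Dbp: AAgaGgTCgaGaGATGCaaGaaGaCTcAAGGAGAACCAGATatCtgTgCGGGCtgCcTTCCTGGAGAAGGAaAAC
Tef: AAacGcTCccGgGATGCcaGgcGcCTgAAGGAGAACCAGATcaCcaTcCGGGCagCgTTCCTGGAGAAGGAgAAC
Hlf: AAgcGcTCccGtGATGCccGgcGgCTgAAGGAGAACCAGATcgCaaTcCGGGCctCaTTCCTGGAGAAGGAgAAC
The PAR bZIP stretches, at coding bases 808 to 882 of Dbp, 736 to 810 of Tef and 718 to 792 of Hlf, shared 54 of 75 bases. Tef and Hlf were the closest pair of the trio, with 9 mismatches in their best 75 bases. No member shared a whole 75-base window with another member.

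Sharing with neighbours was larger than sharing among members, and it is listed here because whether counting was strand-specific is not given in the sources used here. Nr1d1 (ENSMUSG00000020889, chr11:98767932-98775333 in GRCm38, minus strand) overlaps Thra, a thyroid hormone receptor gene, tail to tail, and 6.5% of its 75-base windows also lie in Thra on the other strand. Dbp (ENSMUSG00000059824, chr7:45705088-45710203, plus strand) overlaps Sphk2, and 15.25% of its windows lie in Sphk2 on the other strand. Tef (ENSMUSG00000022389, chr15:81802421-81826863, plus strand) shares 1.52% of its windows with the antisense gene Gm17597. Nr1d2 (ENSMUSG00000021775, chr14:18204054-18239127, minus strand) shares 2.3% with AC170187.1 on the same strand. Hlf (ENSMUSG00000003949, chr11:90336536-90390895, minus strand) shared none. Dbp therefore had the largest share of windows that an overlap could touch. The deposited counts keep a separate class of ambiguous reads, at a median of 0.832%. How far overlaps changed the count of any member was not tested.

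All 5 genes were well expressed in both regions. Per kilobase of exon, which allows a comparison between genes, the saline level in PFC was 53.1 ± 9.35 CPM for Hlf, 52.7 ± 3.07 for Tef and 52.3 ± 7.20 for Nr1d1 (SD, n = 6). These 3 values differed by less than the SD of Hlf or Nr1d1. Dbp followed at 43.2 ± 3.36 CPM per kilobase and Nr1d2 at 21.7 ± 3.56 (SD, n = 6). In NAc of saline mice the order was different, with Tef at 50.6 ± 8.32, Dbp at 44.7 ± 10.2, Nr1d1 at 29.9 ± 5.77, Nr1d2 at 19.7 ± 1.11 and Hlf at 19.1 ± 4.72 CPM per kilobase (SD, n = 7). There Tef and Dbp lay within 1 SD of each other, and so did Nr1d2 and Hlf. Hlf moved from the top of the order in PFC to the bottom in NAc.

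The comparison of the regions asked where each gene is higher, averaged over treatments and sexes. Of the 5 genes, 3 were lower in NAc than in PFC and none was higher. Here edgeR's quasi-likelihood test with Benjamini-Hochberg adjustment called 66.2% of 19266 genes. Of all 19266 genes, 29.7% were called lower and 36.5% higher. With that background, a call by itself says little, and the sizes carry the description. In bulk tissue, fewer cells that make a transcript and less of it per cell cannot be told apart.

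Hlf ranged from 227.4 to 470.4 CPM over the 30 PFC libraries, with a median of 369.2, and from 77.97 to 247.4 CPM over the 32 NAc libraries, with a median of 148.5. The regions barely overlapped: 28 NAc libraries lay under the lowest PFC library, which was number 10, the library of lowest depth. The other 29 PFC libraries lay above the highest NAc library. The log2 difference of NAc from PFC was -1.38 ± 0.09 for Hlf (SE, edgeR adjusted p = 5.92e-20). Nr1d1, a repressor of Arntl, ranged from 130.1 to 252.3 CPM in PFC (median 168.4) and from 55.49 to 125.6 in NAc (median 93.5). Every NAc library lay under every PFC library, and the log2 difference was -0.97 ± 0.06 (SE, edgeR adjusted p = 5.07e-20).

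Nr1d2, the second Rev-erb, did not show this separation. It ranged from 87.45 to 173.7 CPM in PFC and from 99.43 to 145.9 in NAc, so that the NAc values lay inside the PFC range, and its log2 difference was -0.16 ± 0.05 (SE, edgeR adjusted p = 0.00382). With 2 surrogate variables in the fit it was -0.33 with an adjusted p of 0.0828. Tef, with medians of 422.4 CPM in PFC and 448.1 in NAc, and Dbp, with medians of 129.8 and 139.6, had log2 differences of -0.04 ± 0.06 (SE, edgeR adjusted p = 0.513) and 0.00 ± 0.08 (SE, edgeR adjusted p = 1). The fit with surrogate variables is the exception, since it gave -0.93 for Tef and -1.13 for Dbp, both called. Nr1d1's neighbour Thra, whose reads overlap its 3′ end, had a log2 difference of -0.04 ± 0.04 (SE, edgeR adjusted p = 0.436) between the regions.

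**Figure D1:**
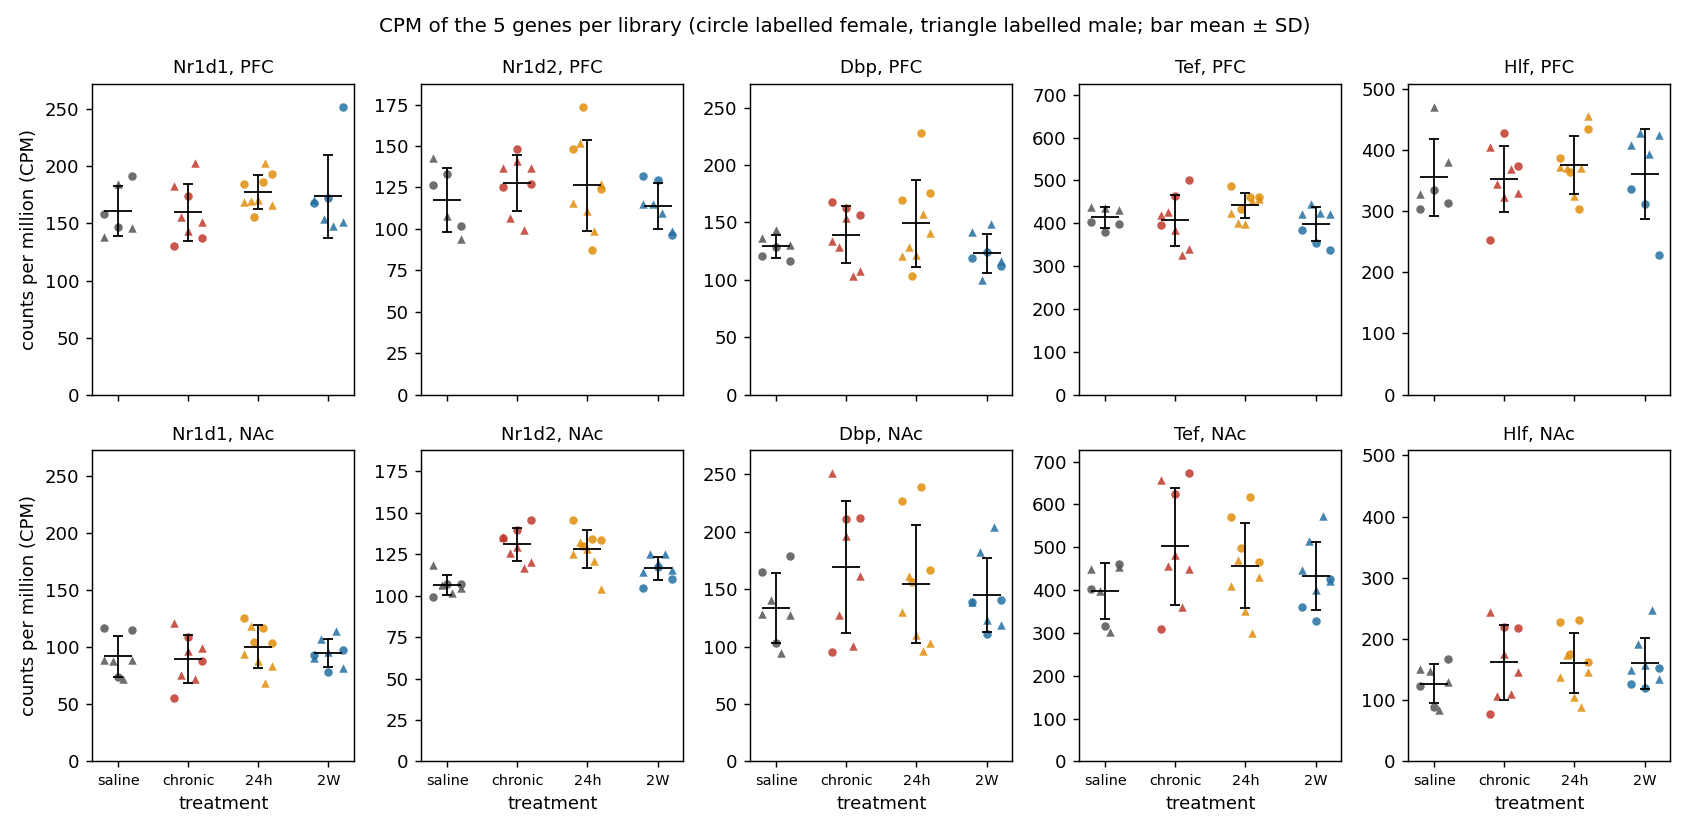
Level of each gene in CPM (vertical axis, from 0) in every library by treatment, with PFC above and NAc below; circles are labelled female and triangles male, and bars give the mean and SD. Nr1d2 in NAc is tightly grouped, with 7 of 8 chronic and 8 of 9 24h libraries above the highest saline library at 118.2 CPM, while Dbp, Tef and Hlf spread widely within every NAc group.

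The next comparisons asked which members differed from the saline level at each stage of morphine, with the same saline libraries serving all 3 contrasts of a region. Nr1d2 rose in NAc, both during chronic morphine and 24 h after it, and was the sole member called in any of the 6 contrasts. In NAc under chronic morphine 1 of 5 members was called, against 1.69% of 18382 genes (0.783% called higher), and at 24 h again 1 of 5, against 0.163% (0.103% higher). These background counts rest on few libraries: over fits that each left out 1 NAc library they ranged from 120 to 566 genes for chronic morphine (311 with all) and from 3 to 49 at 24 h (30 with all), with the lowest without chronic replicate 27 and saline replicate 1. At 2 weeks edgeR called 0 of 5 members and 0.00544% of all genes in NAc, with Nr1d2 alone of the members at an unadjusted p under 0.05. DESeq2 called 0 of 5 there and 0.223% of all genes.

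In NAc of saline mice, Nr1d2 ranged from 99.43 to 118.2 CPM with a median of 106.4. Under chronic morphine it ranged from 116.5 to 145.9 CPM with a median of 131.8, and 7 of the 8 libraries lay above the highest saline library. At 24 h it ranged from 104.1 to 145.7 CPM (median 129.9), with 8 of 9 libraries above the highest saline one. At 2 weeks the range was 104.7 to 125.3 CPM (median 116.2), which overlapped the saline range in 5 of 8 libraries.

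The fold change of Nr1d2 in NAc was 1.25 under chronic morphine, a log2 value of 0.32 ± 0.05 (SE, edgeR adjusted p = 0.00151). At 24 h it was 1.21, a log2 value of 0.28 ± 0.05 (SE, edgeR adjusted p = 0.0176). At 2 weeks the log2 value was 0.12 ± 0.05 (SE, edgeR adjusted p = 0.69). Between 24 h and chronic morphine Nr1d2 differed by a log2 value of -0.04 ± 0.05 (SE, edgeR adjusted p = 0.89). In that contrast edgeR called 0 of 5 members (0 at an unadjusted p under 0.05) and 0.087% of genes, and DESeq2 0 of 5 and 0.664%. With the striatal marker score as a covariate the Nr1d2 effects were 0.30 (adjusted p = 0.000696) and 0.26 (adjusted p = 0.0102) in the same edgeR test.

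The chronic call of Nr1d2 was kept in all 32 fits that each left out 1 library (0.30 to 0.34), and the 24 h call was kept in 31 of 32. Without NAc saline replicate 1, the library with the lowest Nr1d2 value of the saline group, the 24 h effect was 0.26 with an adjusted p of 0.0899. A further limit concerns Bfsp2 and H2-T22, genes that were on or off by library: they were off in 5 of 8 chronic NAc libraries (numbers 25 to 29) and on in the other 27 NAc libraries. Nr1d2 stood at 125.7 to 145.9 CPM in the 5 chronic libraries with these genes off and at 116.5 to 129.1 CPM in the 3 with them on. Those 3 (numbers 30 to 32) were all labelled male, while numbers 25 to 27, all off, were labelled female. State and labelled sex can therefore not be fully told apart among the chronic libraries. With this state added to the fit, which was decided after the data were seen, the chronic effect of Nr1d2 was 0.25 with an adjusted p of 0.586, and the part of the state in the result was not tested further.

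Its partner Nr1d1 did not follow in NAc. Nr1d1 ranged from 72.59 to 116.5 CPM in saline, 55.49 to 121.2 in chronic, 68.56 to 125.6 in 24h and 78.63 to 114.3 in 2W libraries, and all 4 ranges overlapped. Its log2 fold change was -0.07 ± 0.14 under chronic morphine (SE, edgeR adjusted p = 0.847), 0.12 ± 0.13 at 24 h (adjusted p = 0.72) and 0.01 ± 0.14 at 2 weeks (adjusted p = 0.99). The sign at chronic morphine turned to 0.14 with the state of a set of pseudogenes as a covariate. That state, a high or low mean level of these genes, was on in 8 of 8 chronic and 7 of 9 24h NAc libraries. It was on in 4 of 7 saline and 0 of 8 2W NAc libraries. In saline libraries of both regions it was on in males and off in females, so it cannot be fully told apart from treatment and sex. With the striatal score the chronic value was -0.22 ± 0.08 (SE, edgeR adjusted p = 0.104), and with 2 surrogate variables it was -0.23 ± 0.06 (SE, edgeR adjusted p = 0.0178), which passed the threshold. Whether the response of the Rev-erb genes differed from each other was not tested.

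The PAR bZIP genes had chronic log2 values in NAc of 0.33 to 0.36, near that of Nr1d2, but with SEs of 0.15 to 0.21 in place of 0.05, and none was called. Tef ranged from 302.1 to 460.2 CPM in saline and from 309.2 to 672.3 under chronic morphine, where 4 of 8 libraries lay above the highest saline library. Its log2 fold change was 0.35 ± 0.15 (SE, edgeR adjusted p = 0.24). Without chronic replicate 25, which had the lowest Tef value of its group, it was 0.50 with an adjusted p of 0.0382.

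Dbp ranged from 94.02 to 178.6 CPM in saline and from 95.03 to 250.8 under chronic morphine, at a log2 value of 0.33 ± 0.19 (SE, edgeR adjusted p = 0.445). Hlf ranged from 83.72 to 166.5 CPM in saline and from 77.97 to 243.5 under chronic morphine, at a log2 value of 0.36 ± 0.21 (SE, edgeR adjusted p = 0.455). In each gene 4 of 8 chronic libraries lay above the highest saline library, and the lowest chronic library lay near or under the lowest saline one. At 24 h the log2 values were 0.21 for Tef, 0.19 for Dbp and 0.34 for Hlf, and at 2 weeks 0.07, 0.06 and 0.27, with edgeR adjusted p-values of 0.512 to 0.968. With the striatal score as a covariate the chronic values were 0.18 for Tef, 0.10 for Dbp and 0.08 for Hlf (edgeR adjusted p = 0.154, 0.665 and 0.703).

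**Figure D2:**
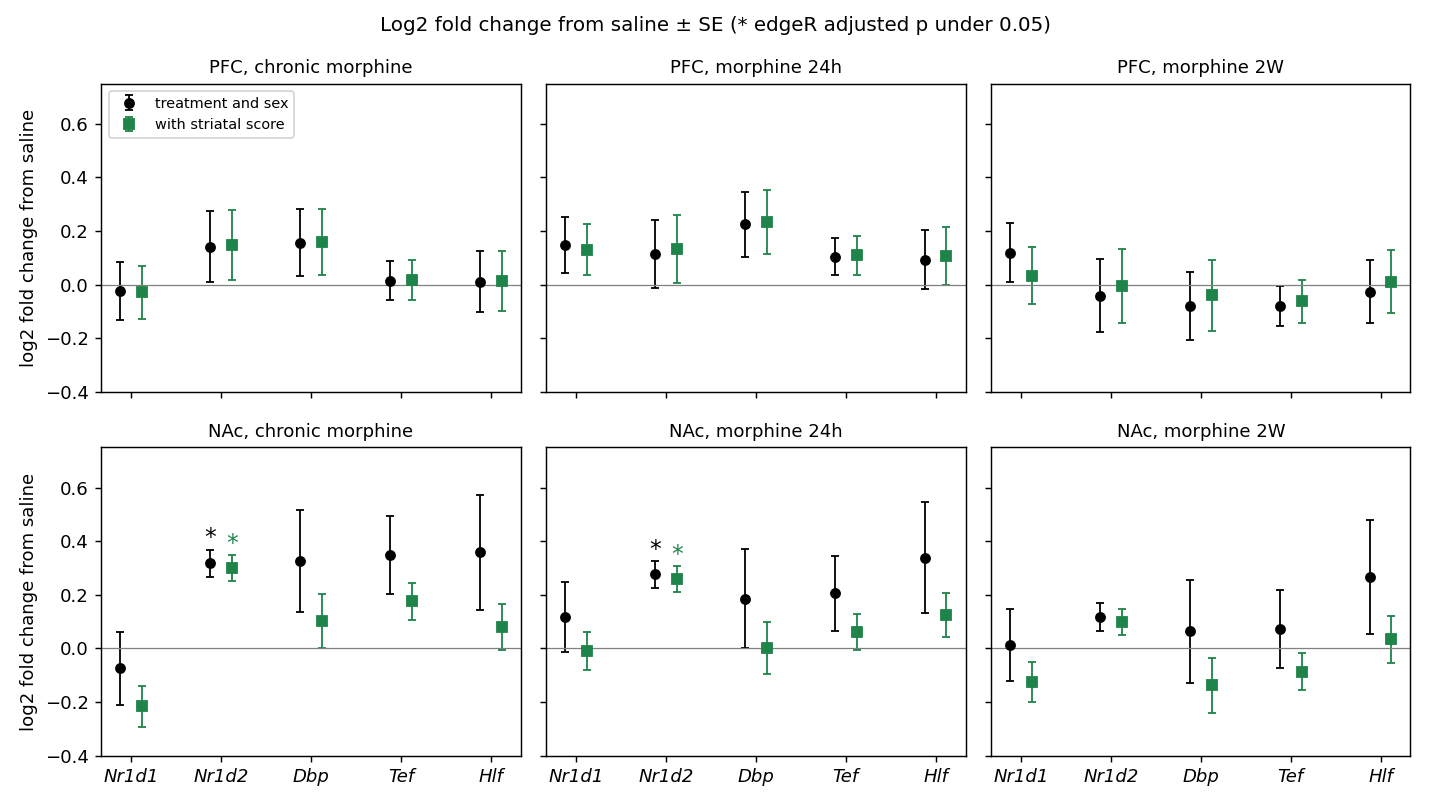
Log2 fold change from saline with its SE (vertical axis) for each gene, by region and stage, from the fit on treatment and sex (black circles) and with the striatal marker score added (green squares); asterisks mark an edgeR adjusted p under 0.05. Nr1d2 in NAc stays near 0.3 under both fits at chronic morphine and 24 h, whereas Dbp, Tef and Hlf in NAc have errors that shrink once the score is added and values that move down, below 0 for Dbp and Tef at 2 weeks.

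In PFC no member was called at any stage. Under chronic morphine edgeR called 0 of 5 members (0 at an unadjusted p under 0.05), against 0.417% of 17966 genes (0.96% without PFC number 10, the library of lowest depth). DESeq2 called 0 of 5 there, against 0.974% of all genes. At 24 h edgeR called 0 of 5 (0 unadjusted) against 0.0779% of all genes, and DESeq2 0 of 5 against 0.256%. At 2 weeks edgeR called 0 of 5 (0 unadjusted) against 0.00557%, and DESeq2 0 of 5 against 0.0668%. Between 24 h and chronic morphine in PFC edgeR called 0 of 5 (0 unadjusted) against 0.0278%, and DESeq2 0 of 5 against 0.195%. The log2 values lay between -0.03 and 0.16 under chronic morphine, 0.09 and 0.23 at 24 h and -0.08 and 0.12 at 2 weeks, with SEs of 0.07 to 0.14.

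Nr1d2 in PFC ranged from 94.09 to 142.8 CPM in saline and from 99.45 to 148.2 under chronic morphine, where 1 of 8 libraries lay above the saline range. Its log2 fold change there was 0.14 ± 0.13 (SE, edgeR adjusted p = 0.888), and at 24 h it was 0.12 ± 0.13 (adjusted p = 1). Dbp had the largest PFC value, 0.23 ± 0.12 at 24 h (SE, edgeR adjusted p = 1), with 103.1 to 227.6 CPM against 116.2 to 143.6 in saline. Without 24h replicate 20, which held the highest value, it was 0.13. A joint fit tested the stage effects of NAc against those of PFC. For Nr1d2 the effects in NAc exceeded those in PFC by log2 values of 0.19 (chronic), 0.17 (24 h) and 0.17 (2 weeks), with an edgeR adjusted p of 0.986. That test called 0 of 5 members (0 at an unadjusted p under 0.05) and 0.0363% of all genes, and DESeq2 0 of 5 and 0.151%. The response of Nr1d2 was therefore not shown to be particular to NAc.

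The other genes of the clock and Rev-erb pathway were read from a list of 25 genes, all of which were tested. The list was chosen with earlier results of these data known. Its share of calls beside that of all genes is therefore a description and not a test. Under chronic morphine in PFC 3 of 25 fell and none rose, where 0.306% of all genes were called lower, with a list median of 0.04 beside 0.01 for all genes. They were Nfil3, Per1 and Bhlhe40. Nfil3, the repressor that competes with the PAR bZIP trio, fell from 17.2 to 26.67 CPM in saline to 8.14 to 13.23 CPM, with no overlap between the groups, and its log2 fold change was -1.10 ± 0.13 (SE, edgeR adjusted p = 6.37e-06). Per1, a clock repressor that also answers quickly to neuronal activity, ranged from 184.7 to 307.8 CPM in saline and from 61.08 CPM upward under chronic morphine (median 91.51), with all 8 libraries under the lowest saline one, at -1.11 ± 0.14 (SE, edgeR adjusted p = 2.99e-05). Bhlhe40, a further clock repressor, changed by a log2 value of -0.53 ± 0.12 (SE, edgeR adjusted p = 0.0363). The Nfil3 call held in all 30 fits that left out 1 PFC library, as did that of Per1, which was lost with the pseudogene state (-0.83, adjusted p = 0.0734). The Bhlhe40 call held in 21 of 30 such fits, not without saline replicate 1, 3, 6 or 7 or chronic replicate 25, 26, 28, 29 or 30, and was lost with surrogate variables and with either on-or-off state.

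In NAc under chronic morphine 1 of 25 fell (0.908% of all genes were called lower), again Nfil3, from 8.085 to 12.35 CPM in saline to 4.101 to 8.859 CPM. Its log2 fold change was -0.70 ± 0.17 (SE, edgeR adjusted p = 0.0312), and the list median was 0.09 beside -0.01 for all genes. Among chronic libraries Nfil3 was highest, at 8.859 CPM, where the striatal marker score was lowest, and the chronic group had the higher median score (8.46 against 7.94 in saline). With the score as a covariate the value was -0.62 ± 0.13 (SE, edgeR adjusted p = 0.0074). The call held in 27 of 32 fits that left out 1 NAc library (-0.93 to -0.58) and was lost without saline replicate 2 or 6 or chronic replicate 26, 27 or 28, with number 27 as male (adjusted p = 0.0894) and with either on-or-off state. Per1 under chronic morphine in NAc was at -0.03 ± 0.21 (SE, edgeR adjusted p = 0.966). With 2 surrogate variables it was -0.32 ± 0.07 (SE, edgeR adjusted p = 0.00794), which passed the threshold. With the striatal score it was -0.28 (adjusted p = 0.17) and with the pseudogene state 0.39 (adjusted p = 0.411). The joint test of stage effects by region called 0 of the 25 list genes and 0.0363% of all genes. At 24 h and at 2 weeks edgeR called 0 of 25 in both regions. Nfil3 in PFC stood at -0.54 ± 0.12 at 24 h (SE, edgeR adjusted p = 0.119) and at -0.03 ± 0.13 at 2 weeks (adjusted p = 0.983). In the same chronic contrast in PFC, the genes that share its DNA element, Dbp, Tef and Hlf, had log2 values of 0.16, 0.02 and 0.01 and were not called.

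Arntl, the activator that the Rev-erbs repress, was not called at any stage. In NAc it had log2 values of 0.16 ± 0.16 under chronic morphine (SE, edgeR adjusted p = 0.677), 0.13 ± 0.15 at 24 h (adjusted p = 0.726) and 0.28 ± 0.16 at 2 weeks (adjusted p = 0.828). In PFC its values were 0.06, 0.18 and 0.15 (edgeR adjusted p = 0.974, 1 and 0.947). Arntl ranged from 20.27 to 28.78 CPM in saline NAc and from 16.61 to 40.23 CPM under chronic morphine. Between the regions, 23 of the 25 list genes differed, 10 higher and 13 lower in NAc, where 36.5% and 29.7% of all genes were called in these directions, with a list median of -0.21 beside 0.07 for all genes. Nfil3 (-1.07 ± 0.07, SE, edgeR adjusted p = 1.19e-18), Per1 (-0.70 ± 0.09, adjusted p = 2.88e-09) and Arntl (-0.39 ± 0.07, adjusted p = 6.78e-06) were lower in NAc, as were Hlf and Nr1d1.

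The sexes were compared over all treatments of a region and by whether the stage effects differed between them. Between females and males in PFC edgeR called 0 of 5 members (1 at an unadjusted p under 0.05) and 0.0334% of all genes, and DESeq2 0 of 5 and 0.0278%. In NAc edgeR called 0 of 5 (0 unadjusted) and 0.0598%, and DESeq2 0 of 5 and 0.087%. The unadjusted exception was Hlf in PFC, lower in females by a log2 value of -0.21 ± 0.08 (SE, edgeR adjusted p = 0.946). The test of treatment by sex called 0 of 5 in PFC (1 unadjusted, 0 by DESeq2; 0% of all genes, with 846 at an unadjusted p under 0.05 and 0.267% called by DESeq2). In NAc edgeR's test of treatment by sex called 0 of 5 (1 unadjusted) and 0.0544% of all genes, and DESeq2 0 of 5 and 0.522%.

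The members with an unadjusted p under 0.05 in that test were Tef in PFC and Nr1d2 in NAc. Tef in PFC was at 394 ± 12.3 CPM in saline females and 435 ± 3.39 in saline males (SD, n = 3 each). Under chronic morphine it was at 454 ± 53.9 CPM in females (SD, n = 3) and 379 ± 45.9 in males (SD, n = 5). The test gave an edgeR adjusted p of 0.575. Number 27, whose counts go against its female label, held the highest Tef value of the chronic females, 502.1 CPM, and with it as male the unadjusted p of the edgeR test rose from 0.00371 to 0.0512 (adjusted p = 0.945). Nr1d2 in NAc stood at 104.5 ± 4.37 CPM in saline females and 140 ± 5.71 in chronic females (SD, n = 3 each), and at 107.7 ± 7.25 in saline males (SD, n = 4) and 125.4 ± 7.28 in chronic males (SD, n = 5), with an edgeR adjusted p of 0.51 for the difference between the sexes. Number 27 again had the highest value of the chronic females, 145.9 CPM, and with it as male the unadjusted p went from 0.0172 to 0.0563 (edgeR adjusted p = 0.361). In both regions the chronic libraries labelled female (numbers 25 to 27) all had Bfsp2 and H2-T22 off. Those labelled male were off in numbers 28 and 29 and on in numbers 30 to 32. Labelled sex and this state can therefore not be fully told apart under chronic morphine.

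How much the genes varied between libraries of the same treatment and sex set the precision of every contrast. In NAc the within-group SD on the log2 scale was 0.44 for Hlf, 0.39 for Dbp, 0.30 for Tef and 0.27 for Nr1d1. Among genes of like level these SDs lay at percentiles 92.7, 90.7, 78 and 82.3. Nr1d2 had an SD of 0.09, at percentile 13.7. In PFC the pattern was another one: Tef had the smallest SD, 0.11 at percentile 2.6, and Nr1d2 the largest, 0.26 at percentile 70.3.

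In NAc the spread was shared. Deviations from the mean of treatment and sex were correlated over the 32 libraries, with permutation of libraries within these cells and adjustment over 40 relations. Among Nr1d1, Dbp, Tef and Hlf all 6 pairs had Pearson r between 0.87 and 0.95 (permutation p = 1e-05, the smallest that 100000 permutations can give, adjusted 3.64e-05). Leaving out the 2 libraries farthest from the median gave 0.83 to 0.92 for the same pairs. Spearman's rho for the 6 pairs was 0.84 to 0.93 (permutation, adjusted p = 4e-05). Each of the 4 genes also moved with Per1, at r of 0.91 to 0.93, and with Arntl, at r of 0.77 to 0.84. The relation to Arntl was positive although Nr1d1 encodes a repressor of it. The share of all gene pairs in NAc with an r this high was not counted. Genes outside the members reached 0.943 with Nr1d1 (Synpr) and 0.969 with Tef (Erc2), so the block is not shown to be particular to these genes.

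Nr1d2 moved less with the other 4 in NAc. Its r was 0.51 with Dbp (permutation adjusted p = 0.0106), 0.43 with Hlf (adjusted p = 0.0455), 0.42 with Nr1d1 (adjusted p = 0.0661) and 0.39 with Tef (adjusted p = 0.0674). By rho, all 4 of these relations had an adjusted p under 0.05. In PFC the pairs of members had r between -0.49 and 0.47. The pair of Rev-erb genes there had r = -0.49 and rho = -0.49 (permutation adjusted p = 0.0423 and 0.0365), and r was -0.37 without the 2 farthest libraries. Hlf moved with Per1 in PFC at r = 0.56 (permutation adjusted p = 0.0299), or 0.41 without the 2 farthest libraries. By rho alone, Hlf with Arntl (permutation adjusted p = 0.0365) and Nr1d1 with Per1 (adjusted p = 0.0329) also passed in PFC. Of the 40 relations, 18 had an adjusted p under 0.05 by r.

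**Figure D3:**
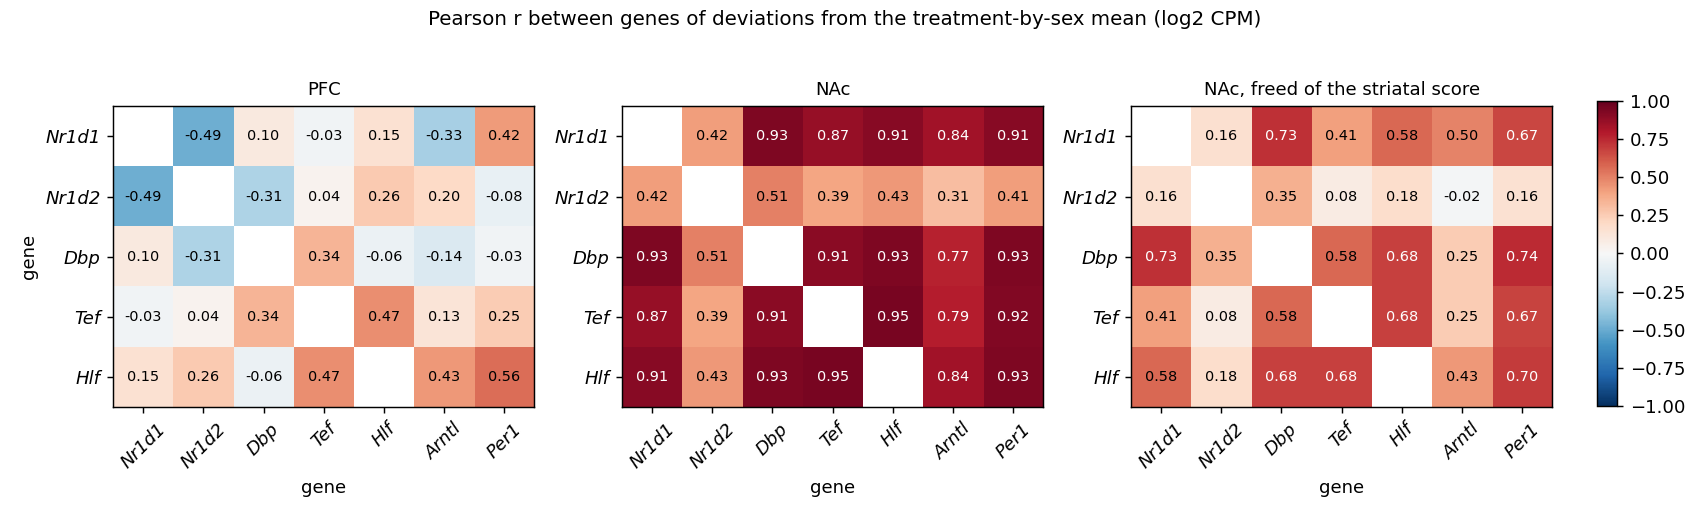
Pearson r of deviations from the mean of treatment and sex, between each member and the other members, Arntl and Per1, in PFC (30 libraries), in NAc (32 libraries) and in NAc with the striatal marker score removed; red is positive and blue negative. In NAc Nr1d1, Dbp, Tef and Hlf form a block at 0.87 to 0.95 that Nr1d2 joins at 0.39 to 0.51, in PFC no such block is seen, and with the score removed the block falls to 0.41 to 0.73.

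Striatal marker transcripts in NAc moved with the same 4 genes. Whether they follow the cells held by a punch or the level of these markers per cell cannot be told apart here. A striatal marker score, the mean log2 CPM of the 9 striatal neuron genes, ranged from 4.93 to 9.21 over the NAc libraries. Its median was 7.94 in saline, 8.46 in chronic, 8.08 in 24h and 7.89 in 2W libraries. Deviations of the score and of the genes were correlated, with adjustment over 20 relations. How many of all genes followed the score was not counted. Hlf had r = 0.93 and rho = 0.937, Tef 0.903 and 0.913, Dbp 0.865 and 0.9, and Nr1d1 0.863 and 0.881 (permutation p = 1e-05, the smallest that can be given, adjusted 5e-05). Without the 2 farthest libraries r was 0.919, 0.869, 0.864 and 0.873. Nr1d2 had r = 0.398 (permutation adjusted p = 0.0861) and rho = 0.419 (adjusted p = 0.0604).

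The ends of the score show the sizes. In the 4 NAc libraries with the lowest scores Hlf stood at 77.97 to 88.7 CPM, and in the 4 with the highest scores at 218 to 247.4 CPM. Dbp stood at 94.02 to 103.1 and 203.9 to 250.8 CPM in the same libraries, and Tef at 299.2 to 316.1 and 573.7 to 672.3. Nr1d2 stood at 101.7 to 134.5 CPM in the first of these sets and reached 145.9 in the other, and the ranges overlapped. The lowest scores belonged to saline numbers 6 and 2, chronic number 25 and 24h number 23. Oligodendrocyte markers moved the other way, at r = -0.564 with Hlf (permutation adjusted p = 0.0135) and -0.512 with Tef (adjusted p = 0.0321). In PFC no member was related to the striatal score at an adjusted p under 0.05. The PFC scores ran from 2.94 to 3.76 apart from number 10 of the 2W group, the library of lowest depth, at 0.26. The r values with the score in PFC therefore rest largely on that library and cannot show that a relation is absent.

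**Figure D4:**
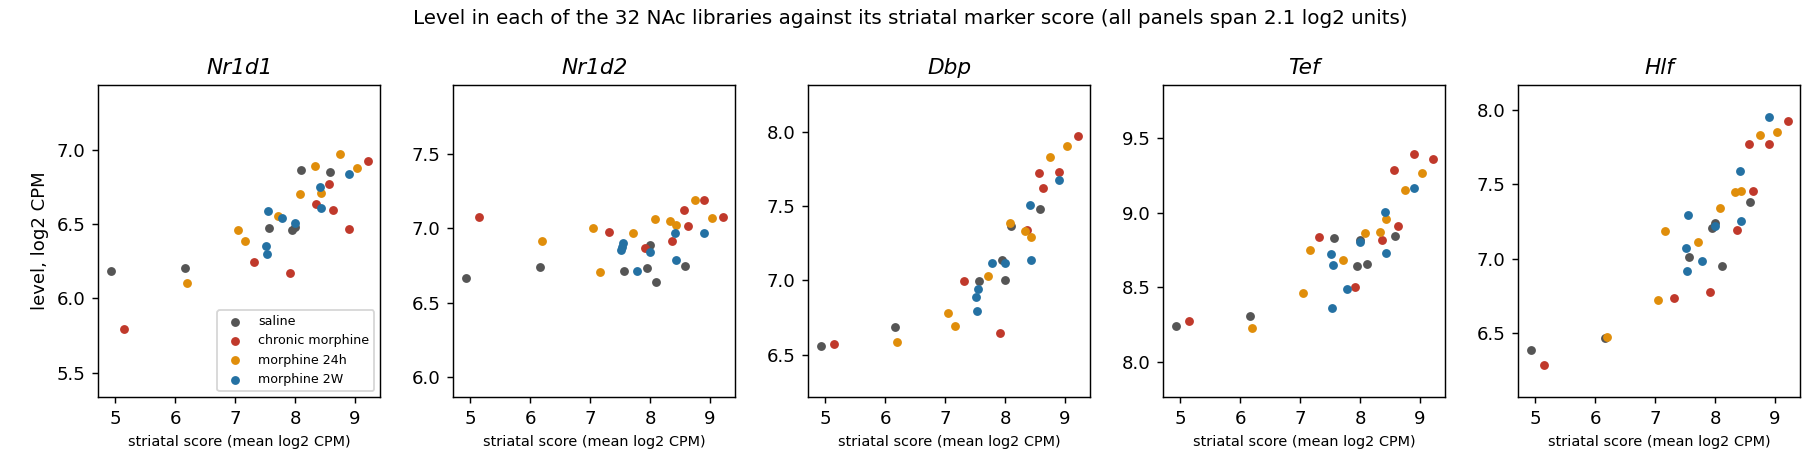
Log2 CPM of each gene (vertical axis) against the striatal marker score, the mean log2 CPM of 9 genes (horizontal axis), for the 32 NAc libraries, coloured by treatment. Hlf, Dbp, Tef and Nr1d1 climb with the score in every treatment, while Nr1d2 is nearly flat and its chronic and 24h libraries lie above most saline libraries at a like score.

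With the score removed from the deviations, an alternative chosen after seeing the data, 8 of the 40 relations had an adjusted p under 0.05 by r, all of them in NAc. Nr1d1 and Dbp kept r = 0.73 (permutation adjusted p = 0.0064), and Dbp with Hlf and Tef with Hlf kept 0.68 each (adjusted p = 0.0105). By rho, Tef with Hlf and Nr1d1 with Hlf missed the threshold (permutation adjusted p = 0.0506 each), and Hlf with Arntl in PFC passed it (rho = 0.593, adjusted p = 0.0127). Without the 2 farthest libraries the 6 pairs of Nr1d1, Dbp, Tef and Hlf ranged from 0.168 (Nr1d1 with Tef, from 0.414) to 0.592 (Nr1d1 with Dbp). Nr1d1, Dbp, Tef and Hlf each kept a relation to Per1, at r of 0.67 to 0.74 (permutation adjusted p = 0.0105 to 0.0141). Without the 2 farthest libraries these r fell to between 0.476 (Nr1d1) and 0.616 (Hlf). No relation to Arntl had an adjusted p under 0.05 by r. The pair of Rev-erb genes in PFC then had r = -0.47 (permutation adjusted p = 0.102). In PFC the removal of the score rests largely on number 10, whose score stood far below the rest.

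Same-numbered PFC and NAc libraries, 30 numbers in all, were compared to see whether a gene deviated alike in both regions. None of the 5 relations had a permutation adjusted p under 0.05, and none had an unadjusted one. Tef had r = 0.467 (permutation adjusted p = 0.378) and Dbp 0.278 (adjusted p = 0.388). With the striatal score of each region removed, Dbp had r = 0.576 and Tef 0.597 (permutation adjusted p = 0.0186 each), but by rho the adjusted p was 0.0507 and 0.152. The PFC part of that removal also rests largely on number 10.

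Last, the genes most like each member were looked up in each region, among 13173 genes in NAc and 12802 in PFC. Likeness was the Pearson r of deviations from the mean of treatment and sex, over all libraries of the region. In NAc, Hlf was most like Usp2 (r = 0.98), a deubiquitinase gene with a daily rhythm in many tissues, followed by Asphd2 and Spcs3. Dbp was most like Sh3bgrl3 (0.962) and Synpr (0.962), and Nr1d1 most like Synpr (0.943), which encodes a synaptic vesicle protein. Tef was most like Erc2 (0.969), a gene of the presynaptic active zone. Nr1d2 had no partner so close, with Pdzd8 (0.77) first. In PFC, Nr1d2 had the closest partner of the 5 members, Trim23 (0.943), followed by Crk and Tmem30a. Hlf had Herc3 (0.918), Tef Actr1b (0.849), Dbp Stmn4 (0.843) and Nr1d1 Atat1 (0.825). These values come from libraries that also varied in marker scores and depth, and no p was attached to them.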

How the data were processed

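The authors deposited a mouse table of raw counts per gene, with RNA from 62 punches. Per the labels, reads were paired and 75 bases long. The submitters' processing notes name FastQC, cutadapt, Trimmomatic, STAR, HISAT2, RSEM and the build GRCm38, without their role, and the use of strand in counting is not given in the sources used here. Reads without a gene (medians of 5.43% with no feature, 14.7% not unique and 0.832% ambiguous) stayed out of library sizes. Symbols came from GENCODE M21. Counts were filtered by expression and scaled by TMM, and edgeR 4.0.16 (R 4.3.3) fitted treatment and sex in each region, with Benjamini-Hochberg adjustment over all genes tested and a threshold of 0.05. A joint fit compared the regions. CPM used TMM-scaled totals, and log2 CPM a prior count of 2. Correlations used 100000 permutations within treatment and sex. DESeq2 1.42.0, 2 surrogate variables (sva 3.50.0), other scaling, no filter, covariates, a replicate block and leaving out each library were alternatives. The fits were tested on simulated data. Members and gene lists were chosen with earlier results of these data known. Named genes are the members, the list genes that passed the threshold against saline, and Arntl, Per1, Nfil3 and the overlap partner Thra. List genes called only between the regions, higher or lower, were counted and not named. The 3 most alike genes of each member were ranked by Pearson r of deviations from the mean of treatment and sex. The rat libraries were not analysed here. A sequence comparison of the Rev-erb pair is not reported here.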

Additional observations from a re-analysis of the deposited data

Results flagged for a closer look

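In 2 of 40 groups of a gene, region and treatment, 1 library stood far from the others of its group, which is the number that chance gives at about 1 in 20. Nr1d1 stood at 252.3 CPM in PFC number 10 of the 2W group, the library with the lowest total count, and the other libraries of that group lay inside the saline range, which ended at 191.7 CPM. Nr1d2 stood at 118.2 CPM in NAc saline number 4, the highest saline value (the nearest was 107.1), against which the chronic and 24h libraries were counted.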

How the results depend on the processing

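Size factors of the RLE kind and DESeq2 changed no direction and no call of a member's fold change. RLE also kept every pair called by r, but by rho Hlf with Arntl in PFC lost its call (permutation adjusted p = 0.0514). Leaving out the 2 farthest libraries turned no sign among the 18 pairs called by r, and no new p was computed. It did turn signs of uncalled relations, such as Nr1d2 with Dbp in PFC (r from -0.308 to 0.183). In NAc under chronic morphine the members called went from 1 to 2 with 2 surrogate variables and to 0 with the Bfsp2 state, and ranged from 1 to 2 when each library was left out (2 without chronic replicate 25). At 24 h they ranged from 0 to 1 (0 without saline replicate 1). With the striatal score removed, called pairs went from 18 to 8 and same-number relations from 0 to 2. The cause was not tested. Beside the replicate numbers, the check gave r of -0.05 to 0.33 over 30 pairs (median 0.13, 20 over 0.1), which did not meet the bar set for pairing. The pseudogene state was the same in both regions for 30 of 30 shared numbers and the Bfsp2 state for 29, and number 27 went against its sex label in both, a hint from the data that a number may mark 1 animal. The fit without the block was kept. With the replicate block, 3 members were still called between the regions, at -1.44 (Hlf), -0.99 (Nr1d1) and -0.15 (Nr1d2), and Dbp was at -0.038.

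Signs that turned belonged to values not called, apart from Dbp between the regions with surrogate variables (-1.127). In PFC under chronic morphine, Hlf was -0.002 with no filter, -0.003 with number 27 as male, -0.009 without PFC number 10 and number 27, -0.019 with the pseudogene state and -0.008 with the oligodendrocyte score. Nr1d1 was 0.001 with no sex term and 0.003 without those libraries. Tef was -0.013 with no sex term, -0.02 without those libraries, -0.029 with the pseudogene state and -0.089 with the Bfsp2 state. At 24 h in PFC, Hlf was -0.007 with the oligodendrocyte score. At 2 weeks in PFC, Hlf was 0.086 with surrogate variables, 0.011 with the striatal score, 0.023 with no sex term, 0.052 without those libraries and 0.003 with the pseudogene state. Nr1d2 was 0.031 with surrogate variables and 0.027 without those libraries, and Dbp 0.008 with the pseudogene state. In NAc, Nr1d1 was 0.142 under chronic morphine with the pseudogene state, and at 24 h -0.045 with surrogate variables and -0.009 with the striatal score, where Dbp was -0.06 with surrogate variables. At 2 weeks in NAc, surrogate variables, striatal score and pseudogene state gave -0.076, -0.124 and -0.204 for Nr1d1 (-0.001 with the oligodendrocyte score), -0.044, -0.086 and -0.081 for Tef, and -0.087, -0.138 and -0.196 for Dbp. Between the regions, Tef was 0.139 with the oligodendrocyte score, and Dbp was -0.012 with number 27 as male, -0.031 without those libraries and -0.002 with the pseudogene state. Leaving out 1 library gave ranges that crossed 0 in PFC under chronic morphine for Hlf (-0.077 to 0.105), Nr1d1 (-0.099 to 0.041) and Tef (-0.027 to 0.06), and at 2 weeks for Hlf (-0.085 to 0.052) and Nr1d2 (-0.107 to 0.049). They did so in NAc for Nr1d1 (-0.176 to 0.048 chronic, -0.077 to 0.07 at 2 weeks) and Dbp (-0.035 to 0.142 at 2 weeks), and between the regions for Dbp (-0.018 to 0.051). The states, the oligodendrocyte score, the changes to numbers 10 and 27 and the removal of the striatal score from the deviations were chosen after seeing the data.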
